A study of Mus musculus with 104 samples.

Results

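CpG-dense stretches of the mouse genome that were little methylated in wild-type (WT) embryonic heads and more methylated in heads lacking Kmt2b (KO) are described here. Chromosomes 1 to 19 were divided into 1000-base tiles, and the reads over all CpGs of a tile were summed. A tile was taken when it held at least 40 CpGs, had at least 30 reads in both head files, was methylated at 20% or less in WT heads, and stood at least 20 points higher in KO heads. Of 2365723 tiles with a CpG, 22282 held 40 CpGs or more, 21082 of these had the reads in both head files, and 17357 were low in WT heads. The gain was met by 94 of the 17357, or 0.542%. The same rule with the genotypes exchanged was met by 4 of 17085 tiles low in KO heads, or 0.0234%. Because the 94 tiles were chosen on the levels of both head files, those levels are given as a description and were not tested.

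Kmt2b, also called Mll2 or Wbp7, encodes an enzyme that methylates histone H3 at lysine 4, and its CXXC domain binds unmethylated CpG. CpG islands are stretches rich in CpG that often carry gene starts, and most stay free of DNA methylation in the embryo while the rest of the genome is heavily methylated. De novo methylation of the epiblast around implantation is carried out by Dnmt3a and Dnmt3b, whose ADD domains do not bind a histone H3 tail methylated at lysine 4.

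Methylation was measured by STEM-seq (bisulfite sequencing for few cells) in 2 samples of Kmt2b-/- heads and 2 of WT heads at embryonic day 8.5 (E8.5), and in 3 samples of Kmt2b-/- epiblasts, the pluripotent layer that forms the embryo, at E6.5. Heads were separated by a cut near the neck, so they hold all tissues of the head. The series design names a cross of DBA2 males with C57BL/6N females, and the strain and allele of the mutants are not given in the sources used here. The deposited files pool the samples of a group, so each level below is 1 value per group. A read was counted at every CpG it covers. The read numbers given are thus counts over CpGs, not of separate molecules. The Wilson 95% interval of a level treats these counts as independent. It covers counting error only and can be too narrow even for that. No spread between embryos can be given, and no methylation file of WT epiblasts was analysed here. RNA came as values labelled FPKM (fragments per kilobase of transcript, by definition scaled to library size), with 1 merged column per group for WT and Kmt2b-/- epiblasts and heads. Some values recur exactly between columns. Tdg was at 7.91299 in KO epiblasts and in WT heads, and 1.70424 stands for Fgf5 in WT heads and Sox1 in KO heads. The columns may therefore have been brought to 1 shared distribution, and how they were normalized is not known here. The targeted gene, listed as Wbp7, was at 0.600 FPKM in WT and 0.133 in KO heads, and at 0.701 in WT and 0.308 in KO epiblasts, all of them low levels.

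Whole files held 45262929 reads over CpGs for WT heads, 42047812 for KO heads and 29138288 for KO epiblasts, and their overall levels lay within 1 point of each other (68.2%, 67.6% and 67.8%). Markers of other tissues differed between the head columns. The summed FPKM of 4 epiblast genes (Pou5f1, Fgf5, Utf1 and Nanog) was 8.35 in WT and 36.7 in KO heads, that of 4 primitive red cell genes 79.3 and 3.39, that of 4 cranial mesenchyme genes 7.32 and 14.1, and that of 5 neural plate and forebrain genes 168 and 134. Visceral endoderm genes summed to 0.498 in WT and 0.310 in KO heads, with Afp listed at 0 in both. The 3 matched of 5 extraembryonic ectoderm genes summed to 1.06 and 0.926. The part of these differences in the methylation of the tiles was not tested.

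Promoters are shown first, since they carry the contrast within the set. RefSeq's windows of 300 bases (250 before the start to 50 after it, build GRCm38.p6) were placed on the files by their CpG spacing, as described under the processing, and 24 genes had their start in 1 of the tiles. In the first 3 genes the window itself gained methylation, and in the last 2 the tile rose while the window stayed low. Every CpG is in capitals and the rest in lower case.

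Stpg2, chr3:139205643-139205942, plus strand, 32 CpGs: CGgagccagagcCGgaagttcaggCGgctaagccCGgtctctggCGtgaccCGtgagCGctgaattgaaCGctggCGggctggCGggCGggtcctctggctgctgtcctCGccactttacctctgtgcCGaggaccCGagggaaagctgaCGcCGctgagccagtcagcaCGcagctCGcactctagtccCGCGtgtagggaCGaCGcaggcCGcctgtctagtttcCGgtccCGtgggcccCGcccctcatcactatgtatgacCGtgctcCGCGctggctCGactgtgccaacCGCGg
Rsph3b, chr17:6948307-6948606, minus strand, 25 CpGs: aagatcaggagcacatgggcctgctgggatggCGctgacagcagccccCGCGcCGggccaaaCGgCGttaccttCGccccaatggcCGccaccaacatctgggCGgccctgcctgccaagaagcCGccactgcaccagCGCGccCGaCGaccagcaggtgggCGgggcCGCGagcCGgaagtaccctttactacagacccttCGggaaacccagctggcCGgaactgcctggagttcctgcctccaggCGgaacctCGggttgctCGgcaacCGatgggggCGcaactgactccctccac
Thbs4, chr13:92794769-92795068, minus strand, 24 CpGs: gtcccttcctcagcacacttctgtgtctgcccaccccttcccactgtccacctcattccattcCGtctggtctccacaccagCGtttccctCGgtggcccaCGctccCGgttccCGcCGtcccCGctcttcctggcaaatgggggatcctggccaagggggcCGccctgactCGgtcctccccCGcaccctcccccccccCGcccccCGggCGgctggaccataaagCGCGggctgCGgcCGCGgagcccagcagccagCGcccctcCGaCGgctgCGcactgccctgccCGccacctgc
Tdrkh, chr3:94412994-94413293, plus strand, 25 CpGs: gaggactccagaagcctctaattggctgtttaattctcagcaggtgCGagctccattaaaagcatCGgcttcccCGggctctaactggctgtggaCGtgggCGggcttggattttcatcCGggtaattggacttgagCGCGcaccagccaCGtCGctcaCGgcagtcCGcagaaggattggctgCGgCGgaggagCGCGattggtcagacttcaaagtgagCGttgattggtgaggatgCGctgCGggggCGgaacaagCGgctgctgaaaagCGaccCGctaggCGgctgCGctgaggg
Rtraf, chr14:19823774-19824073, minus strand, 33 CpGs: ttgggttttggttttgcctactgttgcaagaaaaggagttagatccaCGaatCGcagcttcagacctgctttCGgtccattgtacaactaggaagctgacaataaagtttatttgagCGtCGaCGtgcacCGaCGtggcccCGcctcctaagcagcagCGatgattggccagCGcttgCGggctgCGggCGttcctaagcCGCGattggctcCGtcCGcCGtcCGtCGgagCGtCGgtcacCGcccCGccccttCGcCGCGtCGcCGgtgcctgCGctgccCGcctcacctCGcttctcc

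The window of Stpg2, which encodes a protein with sperm-tail repeats, was methylated at 4.69% in WT heads (128 reads), 53.5% in KO heads (101 reads) and 42.0% in KO epiblasts (138 reads). For Rsph3b, which encodes a radial spoke protein of cilia, the window went from 1.81% in WT heads (166 reads) to 41.5% in KO heads (118 reads), while KO epiblasts were at 5.17% (58 reads). That of Thbs4, an extracellular matrix thrombospondin, was at 6.25% in WT heads, 49.0% in KO heads and 10.7% in KO epiblasts (28 reads, interval 3.71 to 27.2%), while its whole tile was at 23.1% in KO epiblasts (65 reads). Of the 3 windows, that of Rsph3b was thus low in the earlier KO tissue and high in the later one, and for Thbs4 the epiblast depth is too low to place it. Tdrkh encodes a Tudor-domain protein of the piRNA pathway. Its window was at 0.820% in WT heads and at 0% in KO heads (0 of 62 reads) and in KO epiblasts (0 of 49 reads), although its tile rose from 6.69% to 27.1%. In the first 200 bases after the start WT heads had 129 reads and KO heads 30, and in the next 200 bases 30 and 53. The rise of the tile therefore also depends on where its reads fall. The window of Rtraf, an RNA-binding factor, was at 1.10% in WT heads (272 reads) and 0% in KO heads (0 of 40 reads). Its tile was at 2.62% in WT heads (305 reads) and 26.5% in KO heads (83 reads). Most WT reads of the tile thus lay in the window, and fewer of the KO reads did. The rise of this tile, too, depends on where its reads fall. The 33 CpGs of Rtraf and the 32 of Stpg2 show that the windows that stayed low were not the poorest in CpG.

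Of the 24 genes, 18 had a window with at least 30 reads in both head files. Of the 18, 6 gained 20 points or more between WT and KO heads, 2 gained 10 to under 20 points, 8 gained under 10 points, and 2 were lower in KO heads. Beside the windows of Stpg2, Rsph3b and Thbs4, the 6 were those of Ttc22 (15.1% in WT and 44.6% in KO heads), Amn (a partner of cubilin in vitamin B12 uptake; 19.8% and 46.2%) and Zfp872 (5.38% and 27.9%). A further 4 windows were 20 points or more higher in KO heads on fewer reads. They were those of Ndn (an imprinted gene that encodes necdin; 3.77% and 52.0%, 53 and 25 reads), Acot4 (a peroxisomal thioesterase; 22.2% and 71.9%, 18 and 32 reads), Zfp996 (3.85% and 33.3%, 26 and 54 reads) and Gm9257 (6.67% and 34.5%, 15 and 58 reads). The tiles of Acot4 and Gm9257 have a repeated CpG pattern, defined below, and their levels are uncertain for that reason. The windows of 8 of the 18 were at 5% or less in KO heads. Besides Tdrkh and Rtraf these were 2810454H06Rik, Gpr19, Lrrfip1, Dhtkd1, St8sia1 and Tekt1. The first of these and Gpr19 share 1 start region on opposite strands, and at both the window was at 0% in KO heads (0 of 50 and 0 of 61 reads). So of the 18 genes, which start in a tile that met the rule, 6 had a promoter window that gained 20 points and 8 a window that stayed low. Windows were assigned to tiles by their start alone and can reach into the adjoining tile. Those of Lrrfip1 and St8sia1 lie mostly in an adjoining tile that did not meet the rule, and those of Tdrkh, Gpr19 and Dhtkd1 cross the edge in part. The 8 low windows are therefore not all low parts of a tile that gained.

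**Figure D1:**
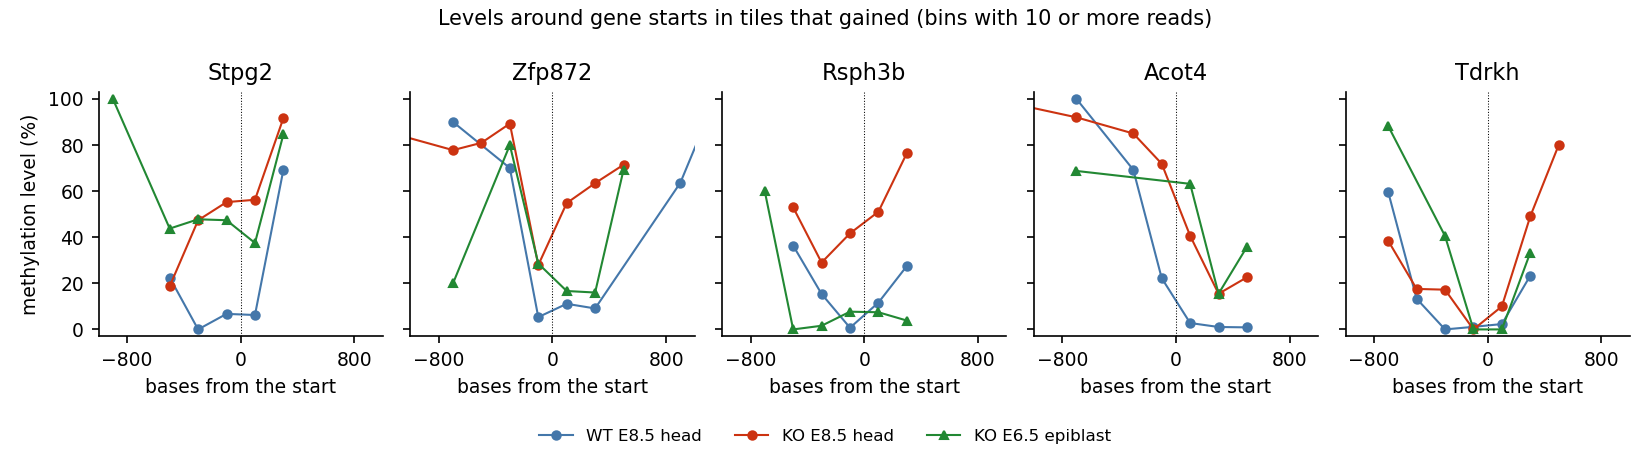
Methylation level (%) in 200-base bins from 1 kb before to 1 kb after 5 placed gene starts (dotted line), for WT heads, KO heads and KO epiblasts, with bins of under 10 reads left out. At Stpg2 both KO tissues lie above WT heads across the start, at Rsph3b only KO heads do, and at Tdrkh all 3 are low in the bin before the start. The tile of Acot4 has a repeated CpG pattern, so its levels are uncertain.

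Profiles around single starts differed from gene to gene. In the 200 bases before the start of Stpg2 the level was 6.74% in WT heads, 55.2% in KO heads and 47.4% in KO epiblasts. In the 200 bases after the start of Rsph3b it was 11.6%, 51.1% and 7.45%. At Zfp872, a zinc finger gene, KO heads reached 54.8% and 63.5% in the first and second 200 bases after the start, against 11.1% and 9.09% in WT heads and 16.7% and 16% in KO epiblasts (18 and 25 reads). In the 200 bases before that start both KO tissues were alike, with KO heads at 27.9% and KO epiblasts at 28.6% (35 reads) against 5.33% in WT heads. At Acot4 the KO head level was 40.6%, 15.5% and 22.6% in 3 successive bins of 200 bases after the start, with WT heads at 2.78%, 1.05% and 0.889%. The Acot4 tile has a repeated CpG pattern, so these levels are uncertain. At Tdrkh both flanks of the island were more methylated than its middle. KO heads were at 17.2% at 201 to 400 bases before the start, 0% in the last 200 bases before it and 49.1% at 200 to 399 bases after it, with WT heads at 0%, 1.11% and 23.3%. The bin at 201 to 400 bases before the start lies outside the tile that met the rule.

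Over the 94 tiles the median level was 9.54% in WT heads (lowest 0%, highest 20%) and 37.5% in KO heads (lowest 22.9%, highest 62.9%). The median gain was 24.9 points, with quartiles of 22.0 and 31.4. For comparison, the other 17263 low tiles had medians of 1.47% in WT and 1.86% in KO heads and a median gain of 0.406 points. KO heads were at 20 to under 30% in 21 of the tiles, 30 to under 40% in 40, 40 to under 50% in 22, 50 to under 60% in 9 and 60% or more in 2. A level of this kind is the share of methylated reads, and it does not tell a share of cells from a share of alleles or CpGs. The gain reached 25 points in 46 tiles, 30 points in 30 and 40 points in 8. On the reads of a single DNA strand, which the rule had used in sum, the gain of a tile ranged from -25.2 to 61.8 points on 1 strand and from -46.4 to 72.0 on the other, and 33 of the 94 met the rule on each strand separately with a minimum of 15 reads.

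**Figure D2:**
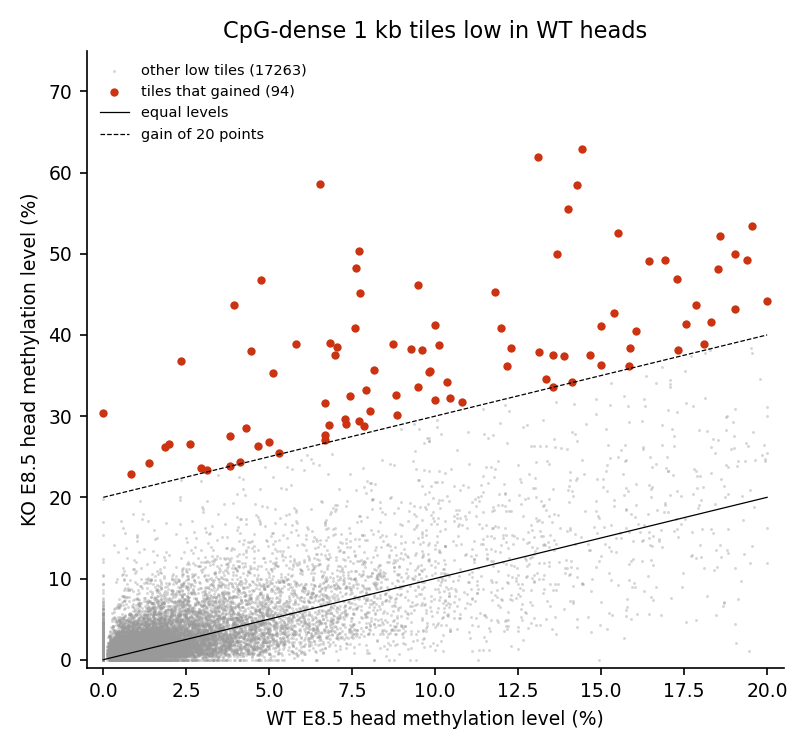
KO head level against WT head level (both %) for the 17357 CpG-dense tiles low in WT heads, with the 94 tiles that gained in red and lines for equal levels and for a gain of 20 points. Most other tiles lie near the origin, and the 94 spread over the whole range of WT levels allowed.

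Depth was lower in these tiles than in other low tiles. The median number of reads per tile was 161.5 in WT heads, 144 in KO heads and 93 in KO epiblasts, against 270, 253 and 126 in the others. The tiles also began from a higher level in WT heads. Of tiles under 5% in WT heads 0.114% gained, of those from 5 to under 10% 2.02%, of those from 10 to under 15% 4.33%, and of those from 15 to 20% 8.66%. The tile nearest the threshold on the inside holds the start of Lrrfip1, at 3.81% in WT and 23.8% in KO heads (chr1:92950000-92950999, mm9). Nearest on the outside was a tile at chr6:47702000-47702999 with 18.3% and 38.1%, a gain of 19.9 points.

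Of the tiles outside chromosome 18 with at least 60 reads in both head files, the 2 with the largest gains had no placed gene start within 10 kb. All tile coordinates that follow are mm9 positions as in the files. At chr17:34446000-34446999 (43 CpGs) the level was 13.1% in WT heads (interval 8.55 to 19.6%, 145 reads), 61.9% in KO heads (52.9 to 70.1%, 118 reads) and 59.5% in KO epiblasts (111 reads). At chr16:38483000-38483999 (55 CpGs) it was 14.4% (10.2 to 20.1%, 194 reads), 62.9% (55.8 to 69.5%, 186 reads) and 60.4% (96 reads). Both tiles were thus nearly as methylated in the KO epiblast as in the KO head, with overlapping intervals. The Zfp872 tile at chr9:21992000-21992999 followed, with 14.3% (10.5 to 19.2%) in WT heads, 58.4% (51.7 to 64.8%) in KO heads and 32.3% (23.6 to 42.3%) in KO epiblasts. A tile at chr8:71923000-71923999 was at 7.69%, 50.4% and 37.6%, one at chr13:65277000-65277999 at 14%, 55.5% and 45.5%, and the Stpg2 tile at chr3:138868000-138868999 at 7.63%, 48.2% and 46.6%. The other tiles among the 12 largest gains rose by 33.8 to 39.7 points, and 1 of them belongs to the repeated group on chromosome 8 described below.

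KO epiblasts, whose reads took no part in choosing the tiles, were methylated over most of them. With at least 30 epiblast reads in 89 tiles, the median level was 34.7% (lowest 1.48%, highest 69.8%), and 70 of the 89 (78.7%) were at 20% or more. Of 17068 other low tiles with such reads 1212 (7.10%) were at 20% or more, and their median was 4.76%. The KO epiblast stood above the WT head in 84 of the 89 tiles and above the KO head in 34, with a median difference from the KO head of -4.58 points. It was at least 20 points above the WT head in 49 of the 89, against 3.86% of the others. These are comparisons across stage and, against WT heads, across genotype as well, so that stage and genotype cannot be told apart in them.

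**Figure D3:**
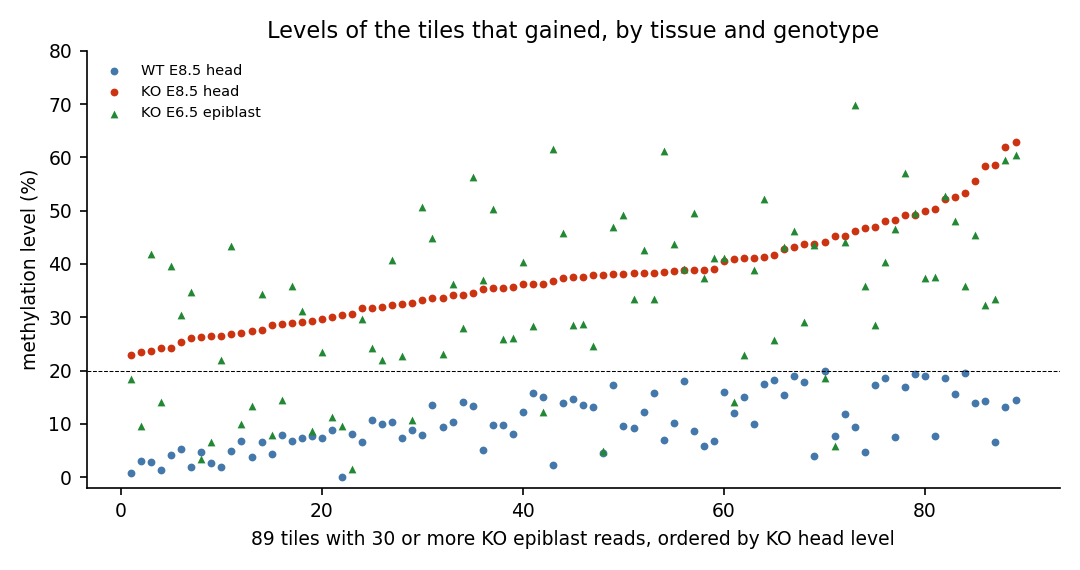
Methylation level (%) of the 89 tiles with 30 or more KO epiblast reads, ordered by KO head level, with 1 point each for WT heads, KO heads and KO epiblasts, and a dashed line at 20%. KO epiblast points scatter on both sides of the KO head points, and 70 of them are at or above the line.

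The difference between the sets held at matched WT head levels. Where WT heads were under 5%, the median KO epiblast level was 16.2% over 16 of the tiles and 4.13% over 14790 other tiles. From 5 to under 10% it was 33.3% (31 tiles) and 11.8%, from 10 to under 15% 40.3% (21 tiles) and 17.5%, and from 15 to 20% 39.0% (21 tiles) and 21.9%. The class lowest in WT heads was thus also the lowest in KO epiblasts. Over the 89 tiles KO epiblast and KO head levels had Spearman's rho = 0.492 and Pearson's r = 0.489, a description over tiles that share their libraries and the restricted range of the rule.

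At the extremes, 3 tiles had the highest KO epiblast levels among those with at least 60 reads there. A tile at chr7:31993000-31993999 was at 9.47% in WT heads, 46.2% in KO heads and 69.8% in KO epiblasts (interval 57.6 to 79.8%, 63 reads). One at chr4:3798000-3798999 was at 2.35%, 36.8% and 61.6% (52.8 to 69.7%, 125 reads), and one in the chromosome 8 group at 7.04%, 38.5% and 61.2% (49.2 to 72.0%, 67 reads). In these the KO epiblast was above the KO head. The lowest was a tile at chr15:82075000-82075999 that adjoins the start of Cenpm, which encodes a centromere protein. It was at 8.05% in WT heads (174 reads), 30.6% in KO heads (157 reads) and 1.48% in KO epiblasts (interval 0.407 to 5.24%, 135 reads). A repeated tile on chromosome 12 at 5% and the Rsph3b tile at 5.85% (3.30 to 10.2%, 188 reads) came next. In all, 9 of the 89 tiles were under 10% in KO epiblasts, so their level in the KO tissues was low at E6.5 and high at E8.5.

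In CpG number, the tiles lay at the sparse end of the dense class. They held a median of 54 CpGs (40 to 153), against 62 (40 to 183) in the other low tiles. The share of low tiles that gained was 0.770% at 40 to 59 CpGs (62 of 8049), 0.474% at 60 to 79 (23 of 4850), 0.277% at 80 to 99 (7 of 2531) and 0.104% at 100 or more (2 of 1927). Without tiles of a repeated CpG pattern, defined below, the shares were 0.716%, 0.209%, 0.160% and 0.105%. The 2 tiles with over 100 CpGs were 1 with 153 at chr7:114353000-114353999, which adjoins the start of Rbmxl2, a testis RNA-binding protein gene, and 1 with 115 at chr19:61302000-61302999. The first went from 17.9% (733 reads) to 43.7% (655 reads) and was at 29.2% in KO epiblasts. The second went from 5.80% (621 reads) to 38.9% (666 reads) and was at 37.4% in KO epiblasts.

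**Figure D4:**
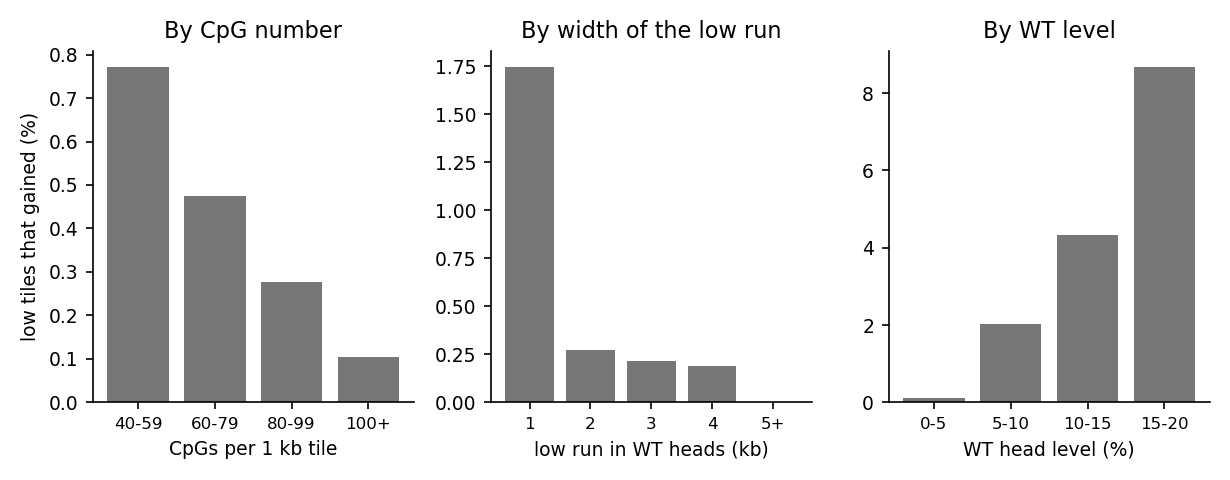
Share (%) of CpG-dense tiles low in WT heads that gained, by CpGs per tile, by the width of the run of low tiles in WT heads, and by WT head level, each panel with its own axis from 0. The share goes from 0.770% to 0.104% with CpG number, from 1.74% to 0 with width, and from 0.114% to 8.66% with WT level.

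Most of the tiles lay in narrow low runs. In WT heads, the run of adjoining tiles at 20% or less around them was 1 kb wide in 65 of 94 (69.1%), against 21.2% of the other low tiles. Of low tiles in runs of 1 kb 1.74% gained, and the share was 0.274% in runs of 2 kb, 0.214% in runs of 3 kb and 0.188% in runs of 4 kb. None of the 2100 low tiles in runs of 5 kb or more did, which allows a share of up to 0.143% (3 of 2100 tiles, counting error only). No adjoining tile held 40 CpGs in 60 of 94 (63.8%), against 49.9% of the others. Run width, CpG number and WT level move together, and the part of each was not tested.

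The flanks were methylated in every file. In the tiles 1 kb to either side, the medians were 58.9% and 50% in WT heads and 65.7% and 52.1% in KO heads, while the neighbours of the other low tiles were at 9.48% and 9.41% in WT heads. The neighbours of the 94 had median gains of 5.06 and 4.10 points, and 21.2% (of 66) and 17.4% (of 69) of them gained 20 points or more, against 5.58% and 5.44% beside the other low tiles. From 2 kb outwards the median gain of the neighbours lay between -2.58 and 4.69 points. At these distances 1.96 to 15.7% of the neighbours gained 20 points or more and 3.64 to 11.8% lost as much, against up to 6.20% and up to 6.76% beside the other low tiles. In these CpG-poorer flanks, which were already methylated, tiles thus changed in both directions. Each distance holds only 42 to 55 neighbours with enough reads, so the values do not show whether the gain reaches beyond the nearest tiles.

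**Figure D5:**
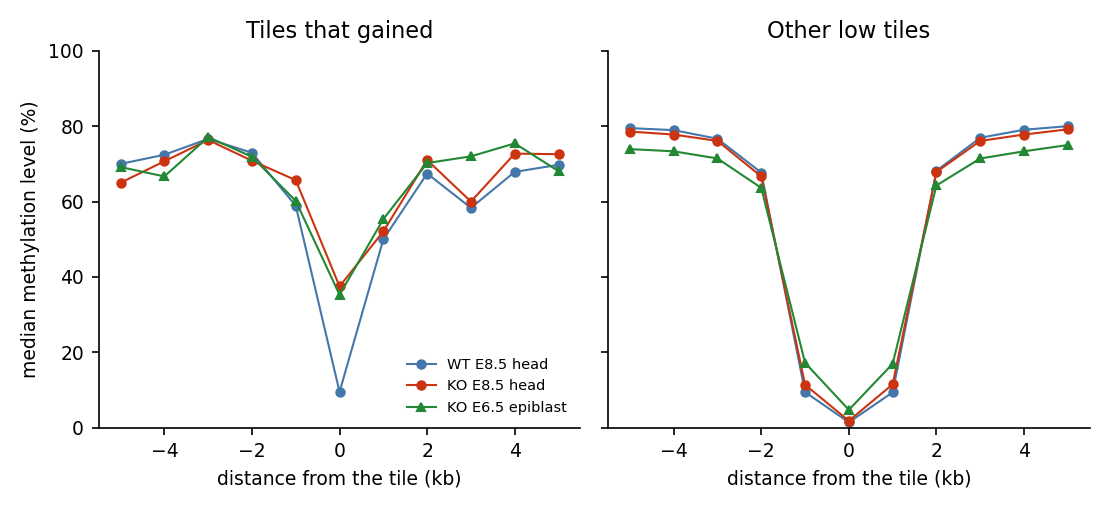
Median methylation level (%) of 1 kb tiles from 5 kb before to 5 kb after the tiles that gained (left) and the other low tiles (right), for WT heads, KO heads and KO epiblasts. On the left both KO tissues are well above WT heads at distance 0 and nearer to them in most neighbouring tiles, and on the right all 3 files are low from 1 kb before to 1 kb after.

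Summed over tiles, the gain did not lie in 1 section of the tile. Tiles were turned so that the more methylated neighbour in WT heads came first, and reads of 70 tiles were summed in 100-base bins. WT heads went from 24.5% in the first bin to 6.64% in the last, KO heads from 53.3% to 33.6% and KO epiblasts from 47.9% to 26.3%. The gain was between 22.5 and 33.2 points in every bin, so KO heads kept the slope of the WT profile. These sums do not show how the gain lies within a single tile, where it can be uneven, as at Tdrkh. In the other low tiles the gain was between 0.487 and 1.48 points.

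Fewer of these tiles than of the other low tiles held a gene start. Outside chromosome 18, for which promoter windows were not used here, 22 of 93 tiles (23.7%) held a placed start, against 50.1% of 16759 others. A start lay only in an adjoining tile for 9 (9.68%), against 18.9%. A distance of over 10 kb to any placed start was found for 45 (48.4%), against 22.4%, and the median distance was 8734 bases against 497. Among low tiles with a placed start 0.261% gained, and among those without one 0.843%. Only starts with at least 7 CpGs in their window could be placed, so a tile without a placed start may still hold one, and whether a tile is exonic or intronic was not determined.

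Repeated sequence made up a larger share of these tiles than of the others. A tile was called repeated when at least 50% of its words of 8 successive CpG spacings occurred elsewhere in the genome. This was so for 21 of 94 (22.3%) and for 1.09% of the others. Of 210 repeated low tiles 10% gained, and of the 17147 not repeated 0.426% (73 tiles). Reads of near-identical copies can be placed on the wrong copy, and the levels of single repeated tiles are uncertain for that reason. Repeated tiles had median levels of 7.04% in WT heads, 38.2% in KO heads and 33.3% in KO epiblasts (17 tiles), and tiles not repeated 10%, 36.8% and 35.9% (72 tiles). The levels of the set were thus much the same without its repeated tiles.

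Several tiles lay together. The largest group, on chromosome 8 from 126066000 to 126142999, held 9 of the tiles among 27 low ones, all 9 of repeated pattern and with 67 to 72 CpGs each. Their levels were 5.10 to 17.6% in WT heads, 35.3 to 50% in KO heads and, for the 7 with 30 epiblast reads, 28.8 to 61.2% in KO epiblasts. The same stretch also held 2 of the 4 tiles that met the exchanged rule, at 49.3% in WT against 14.1% in KO heads and at 38.8% against 18.6%. Gain and loss therefore occurred side by side among near-identical tiles there. On chromosome 4 from 88409000 to 88451999, 4 tiles, 3 of them repeated, were at 1.39 to 7.69% in WT heads, 24.2 to 29.3% in KO heads and 8.70 to 22.0% in KO epiblasts. On chromosome 12 from 18394000 to 21954999, 5 tiles were at 3.13 to 15% in WT heads, 23.4 to 46.7% in KO heads and 5 to 35.9% in KO epiblasts. On chromosome 13 from 65277000 to 66908999, 4 tiles were at 6.98 to 14%, 34.6 to 55.5% and, for the 3 with 30 epiblast reads, 43.8 to 56.3%.

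The longest run of adjoining tiles that gained was on chromosome 19 from 61301000 to 61303999, beside the start of Csf2ra, the alpha chain of the GM-CSF receptor. Its 3 tiles held 78, 115 and 64 CpGs and none had a repeated pattern. WT heads were at 8.73%, 5.80% and 3.93%, KO heads at 38.8%, 38.9% and 43.7%, and KO epiblasts at 49.5%, 37.4% and 43.5%. All 3 were thus alike in both KO tissues. The other run was the Rbmxl2 pair on chromosome 7, whose second tile went from 18.1% to 38.8% with KO epiblasts at 39.0%. By chromosome, the share of low tiles that gained was highest on chromosomes 12 (1.24%), 8 (1.10%), 7 (0.905%) and 4 (0.895%) and lowest on 18 (0.198%), and the repeated tiles make up 9 of the 11 on chromosome 8 and none of the 11 on chromosome 7.

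RNA of the genes at these tiles was mostly low in both genotypes. A total of 34 genes had a placed start in a tile (24) or only in an adjoining one (10), 29 were found in the RNA table, and 17 of the 29 were under 1 FPKM in both head columns. Among genes that start in a tile this was 13 of 20, against 24.1% of 8323 genes that start in the other low tiles. Stpg2 was at 0.0101 FPKM in WT heads and listed at 0 in KO heads, Zfp872 at 0.0741 and 0.0239, Acot4 at 0.0862 and listed at 0, Thbs4 at 0.328 and 0.109, and Ttc22 and Slc15a1, an intestinal peptide transporter, were listed at 0 in both. RNA of these genes was thus near or at 0 in heads of both genotypes.

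Of the 14 genes that passed a minimum of 1 FPKM in at least 2 of the 4 columns, 1 was at least 2-fold lower in KO heads and 0 at least 2-fold higher, on the log2(FPKM + 1) scale. Among all 10500 genes 2.27% were that much lower and 2.13% that much higher. With 1 merged column per group there is no replicate check and no p-value, and in bulk tissue fewer cells of a type and less RNA per cell cannot be told apart. The median difference of the 14 was -0.31 (log2), and 8 of the 14 were lower, against 50.1% of all genes. Over the 9 that start in a tile it was -0.41, with 6 lower and 0 by 2-fold. Genes that start in the other low tiles had a median of 0.00. Over the 5 that start only in an adjoining tile the median was 0.13, with 2 lower, 1 of them by 2-fold. If the columns share 1 distribution, the shares and medians over all genes are largely set by that step.

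Which genes pass 2-fold depends on the pseudocount, with 4 lower genes at 0.1 and 0 at 5. With a pseudocount of 1 the gene was Tram1l1, a gene related to the translocation-associated membrane protein, at 3.50 FPKM in WT and 0.705 in KO heads, a log2 difference of -1.40. Its start adjoins a tile that went from 16.1% to 40.5% and was at 41.2% in KO epiblasts, where its RNA was at 1.51 FPKM in WT and 1.13 in KO. Cenpm went from 27.4 FPKM to 13.4 in heads (-0.97) and was at 13.6 and 13.7 in epiblasts. Its start adjoins a tile at 30.6% in KO heads and 1.48% in KO epiblasts. Tekt1, a tektin of cilia and flagella, was at 1.43 and 0.485 FPKM in heads (-0.71), and Tdrkh at 4.69 and 2.51 (-0.70), with a window at 0% in KO heads. Among the genes whose window gained 20 points or more, 2 passed the RNA minimum. Rsph3b was at 7.60 FPKM in WT and 7.75 in KO heads (0.02), with its window at 41.5%, and Ndn at 100 and 73.2 (-0.44), with its window at 52.0%. The gene with the largest higher value was Rtraf, listed as 2700060E02Rik, at 70.9 and 129 FPKM (0.85), with its window at 0% in KO heads. Any relation between methylation and RNA at these genes was not tested.

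Single WT head libraries exist in the separately normalized Tet1/2 table and give an idea of the spread. There Tram1l1 was at 4.35 and 3.23 FPKM, Cenpm at 35.1 and 29.1, Tdrkh at 5.90 and 3.88, and Tekt1 at 1.84 and 0.819. These values show how far single WT libraries can lie apart, and they are no test of the Kmt2b difference, since the genes were picked for it and the tables were normalized apart. The same table holds E8.5 heads lacking both Tet1 and Tet2 (DKO, 2 samples), enzymes that oxidize 5-methylcytosine. Of 12 genes at the tiles that were tested there with limma over all 10868 genes, 0 passed a Benjamini-Hochberg adjusted p of 0.05, against 0.432% of all genes. An unadjusted limma p below 0.05 was reached by 2 of the 12, with 16.8% of all genes below it. The 2 were 2700060E02Rik, higher in DKO heads (91.2 and 96.3 FPKM against 61.9 and 76.0, log2 difference 0.44 with SE 0.12, limma adjusted p = 0.184), and Lrrfip1, lower (8.85 and 9.38 against 13.4 and 14.3, -0.55 with SE 0.17, limma adjusted p = 0.211). In both genes the 2 DKO libraries lay on 1 side of the 2 WT libraries. Since no label names the embryos behind each library, these p-values rest on a spread that may be technical.

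A list of 16 genes held 9 that write, maintain or remove CpG methylation and 7 that bind CpG islands or act on H3 lysine 4, and 14 of them passed the minimum. None of the 14 differed by 2-fold or more between KO and WT heads, against 2.27% lower and 2.13% higher of all genes, and the median difference was 0.08 (log2) over 8 of the first kind and 0.11 over 6 of the second. Dnmt3b was at 55.2 FPKM in WT and 93.4 in KO heads (0.75), and Dnmt3a at 6.51 and 7.21. In epiblasts Dnmt3b was at 614 FPKM in WT and 726 in KO. Like the summed epiblast genes above, it was higher in epiblasts than in heads and higher in KO than in WT heads. Dnmt1, the maintenance enzyme, was at 17.8 and 14.5 in heads and at 13.5 and 24.5 in epiblasts (0.81), and Uhrf1, which guides it to newly copied DNA, at 72.9 and 61.5 in heads and at 55.2 and 74.9 in epiblasts. Tet1 was at 2.50 and 3.24 in heads. Among the 14, the de novo enzyme Dnmt3b had the largest head difference on the log2(FPKM + 1) scale, with more RNA in KO. Whether this reflects the epiblast genes in KO heads, and its part in the methylation of the tiles, was not tested.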

How the data were processed

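Methylation was deposited by the authors as read counts per CpG, with methylated and unmethylated counts of each strand and the samples of a group pooled, and RNA as FPKM. Trim Galore and BS-Seeker2, TopHat2 2.0.11, Cufflinks 2.0.2 and the mm9 build are named in the submitters' processing notes, without their roles. Counts of both strands were summed per 1000-base tile, and the level is the methylated share. The 3 files list the same 21342492 CpGs. Intervals are Wilson 95%, and a tile's level needed 30 reads (10 for neighbouring tiles), while promoter windows and bins around starts had no minimum and some rest on fewer reads. Reads carry no molecular identifiers, so intervals and limits cover counting error only. Counts at neighbouring CpGs can come from the same molecule, so intervals over reads can be too narrow.

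No mm9 genome or annotation was used here. RefSeq promoter windows (GRCm38.p6) with at least 7 CpGs were placed by exact match of their CpG spacings to the files' positions, on either strand. No coordinates were converted. Of 32851 windows 17116 had the CpGs and 16906 matched 1 place, and 99.9882% of 16886 neighbouring pairs kept the order of the RefSeq table. This step replaced the annotation that the plan had called for and was added after the files were examined.

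For RNA, log2(FPKM + 1) was used with a minimum of 1 FPKM in at least 2 columns. The Kmt2b table has 1 merged column per group, so differences are sizes with no test, and the depth behind FPKM is unknown. In it, 4 columns were not used, 2 of which belong to no listed sample, and 27 names turned into dates were left out. Tet1/2 heads were fitted with limma 3.58.1 in R 4.3.3 (mean trend, Benjamini-Hochberg over all genes, two-sided), with DKO epiblasts sharing the spread. Other steps used Python 3.11.15 with pandas 2.3.3 and scipy 1.17.1. Placement, tile rule and limma fit were checked on simulated data.

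Members and lists were chosen with earlier results of these data known. Tiles named were, by rule, the 12 largest gains with 60 reads in both head files, the 4 with most CpGs, the 3 highest and 3 lowest in KO epiblasts with 60 reads there, the longest runs and those nearest the threshold, outside chromosome 18. Genes are those placed at the tiles, and the promoters shown and the RNA values given for them were chosen after their values were seen, as were the tissue marker lists. Alternatives changed the thresholds, tile phase, weighting and strand, the pseudocount and minimum, and the libraries of the fit.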

Additional observations from a re-analysis of the deposited data

How the results depend on the processing

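Without spread between embryos, single gains have no replicate check, and lower depth in these tiles limits each level. The number of tiles that gained was within 1.5 times of 94 under 8 of 15 alternatives. It was 212 with a minimum of 30 CpGs and 32 with 60, 52 with a WT head level of 10% or less, 187 with a gain of 15 points and 30 with a gain of 30 points. From a single pair of strand columns, with a minimum of 15 reads, it was 205 (columns 3 and 4) and 160 (columns 5 and 6), and 33 of the 94 were called from both pairs. The 4 tiles of the exchanged rule became 30 with a minimum of 30 CpGs, 20 with a change of 15 points, 49 and 42 from the strand columns, 2 each with a minimum of 60 CpGs, tiles shifted by 500 bases, CpGs weighted equally or repeated patterns left out, and 1 each with a minimum of 100 reads, a level of 10% or less or a change of 30 points. Of the 94 tiles, 51 also met the rule with CpGs weighted equally.

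The median gain was 27.9 points with a minimum of 60 CpGs, 20 with a gain of 15 points, 33.7 with a gain of 30 points, 26.2 with CpGs weighted equally and 26.6 from columns 3 and 4. The median KO epiblast level moved beyond its counting interval under 11 of 15 alternatives. It was 37.3% with a minimum of 100 reads and with a WT level of 30% or less, 35.9% with 60 CpGs and without repeated patterns, 30.5% with a WT level of 10% or less and with a gain of 15 points, 42.3% with a gain of 30 points, 33.7% with shifted tiles, 36.2% with equal weights, and 28.6% and 27.7% from the strand columns. The share at 20% or more in KO epiblasts was 87.3% with a minimum of 100 reads, 67.3% with a WT level of 10% or less, 88.5% with a gain of 30 points, and 65% and 64.0% from the strand columns. Leaving out repeated patterns was chosen after seeing the data.

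Genes at the tiles that were at least 2-fold lower in KO heads numbered 4 with a pseudocount of 0.1 and 0 with 5. Their median log2 difference was -0.44 and -0.091 under these, and -0.069 with no minimum. The median of the methylation gene list was 0.038 with a pseudocount of 5. For the Tet1/2 DKO heads, 0 genes at the tiles were called by limma with the replicate block, with each library left out in turn (lowest 0, highest 0), and with the other pseudocounts or no minimum. Over all genes the block gave 32 calls in place of 47, and leaving out single libraries 3 to 290 (290 and 246 without either DKO epiblast library, 3 to 10 without a head library). The replicate numbers did not pair the samples (r = 0.0611 between the differences of the numbers in WT and DKO over 10868 genes). No paired analysis was possible because the methylation files and the Kmt2b RNA columns pool the samples of a group.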

Other observations

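Magohb, a gene of the exon junction complex chosen here after its values were seen, starts in a CpG-dense tile that missed the rule. At chr6:131243000-131243999 (mm9, 53 CpGs) the level was 1.55% in WT heads (129 reads), 14.9% in KO heads (interval 9.21 to 23.1%, 101 reads) and 57.7% in KO epiblasts (44.2 to 70.1%, 52 reads). Its RNA was at 63.9 FPKM in WT heads and listed at 0 in KO heads, and at 93.5 in WT and 40.5 in KO epiblasts. Both KO tissues differ in stage, no methylation file of WT epiblasts was analysed, and the relation of this methylation to the RNA was not tested.

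The other 2 tiles of the exchanged rule, both of no repeated pattern, were at chr10:13043000-13043999 (26.5% in WT and 4.41% in KO heads, with KO epiblasts at 11.5%) and chr19:8327000-8327999 (38.0% and 14.6%, with KO epiblasts at 29.8%).

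Motifs were counted in the promoter windows on both strands, with no overlap between their letters required or excluded. The E-box CACGTG was in 5 of the 27 windows at the tiles (18.5%), in 10.6% of 10592 windows at other low tiles and in 7.15% of all 32851. The E2F motif TTCCCGC was in 2 of the 27 (7.41%) and in 9.84% of windows at other low tiles, the YY1 motif AAGATGGCG in 1 (3.70%) and in 3.06%, and the CRE motif TGACGTCA in 0 and in 3.43%. Windows at the tiles held a median of 19 CpGs and those at other low tiles 25.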
